A study of Mus musculus with 6 samples.

Results

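The RAB11 subfamily GTPases Rab11a, Rab11b and Rab25, the epithelial GTPase Rab17 and the 5 RAB11 family-interacting protein genes (FIPs) Rab11fip1 to Rab11fip5 were examined in transfectants of an epithelial murine LUAD cell line, 393P_vector and 393P_ZEB1. These 9 genes were taken by symbol from the 24214 RefSeq features of the deposited tables, and all 9 were among the 13892 genes with enough reads for the test. The genes were chosen by function but with their counts in 393P_ZEB1 against 393P_vector already in view, so these counts and the fold changes from them are given as a description. Where a gene is said to pass the threshold, this gives its place in the fit over all genes and is no independent test of it. The study made stable transfectants with a ZEB1 expression vector (393P_ZEB1) or with the empty vector (393P_vector), selected with puromycin or G418 for 2 weeks, and asked which transcripts differ when this EMT-activating transcription factor is expressed. The line was of C57BL/6 origin, all transfectants grew in RPMI-1640 with fetal calf serum, and total RNA of 3 samples per group was sequenced on the SOLiD platform. The labels do not say whether the samples of a group were separate cultures or transfections, nor whether a transfectant was a clone or a pool, so p-values measure the spread between these samples. In bulk RNA, fewer cells with a transcript and less of it per cell cannot be told apart.

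The recycling endosome returns internalized receptors, adhesion proteins and lipids to the cell surface. Active, GTP-bound RAB11 on its membrane recruits FIPs, which in turn bind myosin, kinesin and dynein motors, so that vesicles move toward and fuse with the plasma membrane. In polarized epithelia, RAB25 (also called RAB11C) and RAB17 serve the apical recycling endosome and transcytosis, whereas RAB11A and RAB11B are found in most cell types. ZEB1 represses epithelial genes at E-box sequences, and it forms a double-negative loop with the miR-200 microRNAs.

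Total counts ranged from 57844355 to 79158012 per 393P_vector sample and from 54442450 to 61251074 per 393P_ZEB1 sample. CPM are counts relative to the library size after TMM normalization, with factors of 0.979 to 1.05. The smallest detectable level was taken as 3 counts. It was between 0.0379 and 0.0551 CPM, computed from the total counts without the TMM factors. Zeb1 measured 21.2, 22.0 and 21.4 CPM in 393P_vector and 54.9, 48.9 and 51.3 CPM in 393P_ZEB1, in accord with the labels of all 6 samples. Its log2 fold change was 1.26 ± 0.10 (SE), and the 396 tested genes of its chromosome, 18, had a median of 0.64. The SE of a log2 fold change was back-calculated from the edgeR quasi-likelihood test, as the absolute change divided by the square root of its F statistic. The third 393P_vector sample stood apart. It differed at least 2-fold from the other samples of its group in 5.0% and 5.5% of tested genes, against 0.0648% between replicates 1 and 2 and at most 0.180% between 393P_ZEB1 samples. Values are therefore also given without it. Of the 12 epithelial marker genes, 11 fell and none rose in 393P_ZEB1, and of the 8 mesenchymal marker genes, 6 rose and none fell (edgeR quasi-likelihood test, adjusted p below 0.05). The tight junction gene Cldn4 fell by 8.40 ± 0.26 and the splicing regulator Esrp1 by 7.75 ± 0.17 on the log2 scale, and the EMT-associated Twist1 and Cdh2 rose by 2.21 ± 0.35 and 2.04 ± 0.16 (SE).

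To show what sequence lies in front of these genes, the 250 bases before the RefSeq start site (build GRCm38.p6) were read for the E-box CACCTG on either strand, which reads CACCTG or CAGGTG. Windows of 300 bases, from 250 before to 50 after the start, were listed for 7 of the 9 genes, namely all but Rab11fip1 and Rab11fip4. The 3 genes with a match are shown 5′ to 3′ on the minus strand, on which all 3 are transcribed, with the E-box in capitals.
Rab25 (chr3:88548280-88548529): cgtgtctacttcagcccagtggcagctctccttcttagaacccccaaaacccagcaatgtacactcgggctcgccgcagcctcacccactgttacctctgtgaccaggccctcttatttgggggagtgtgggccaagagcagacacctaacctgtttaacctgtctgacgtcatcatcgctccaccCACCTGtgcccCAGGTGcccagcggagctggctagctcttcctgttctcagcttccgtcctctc
Rab17 (chr1:90967668-90967917): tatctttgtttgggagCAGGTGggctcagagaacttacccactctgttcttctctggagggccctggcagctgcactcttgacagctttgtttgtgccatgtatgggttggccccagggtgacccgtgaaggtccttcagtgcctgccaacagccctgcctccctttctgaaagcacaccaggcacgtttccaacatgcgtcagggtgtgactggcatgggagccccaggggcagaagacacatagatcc
Rab11fip3 (chr17:26021861-26022110): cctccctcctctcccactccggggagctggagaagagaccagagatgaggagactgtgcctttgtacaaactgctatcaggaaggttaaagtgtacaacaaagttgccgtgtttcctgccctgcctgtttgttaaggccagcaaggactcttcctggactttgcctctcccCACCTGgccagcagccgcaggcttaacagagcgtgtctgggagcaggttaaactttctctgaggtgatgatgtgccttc

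The Rab25 promoter held 2 E-boxes 5 bases apart, one at positions -64 to -59 and one at -53 to -48, counted from the start site as 0. The single match was at -234 to -229 in Rab17 and at -79 to -74 in Rab11fip3, whose other listed promoter, at the outer start site, had none. The start site of the Rab25 window is that of the counted transcript, whereas the counted Rab17 and Rab11fip3 features began farther upstream. The 7 genes had 9 windows. A CACCTG match was present in 3 of the 9 windows, 33.3%, compared with 20.2% of all 32851 promoter windows, and the shorter motif CACCT in 6 of the 9, 66.7%, compared with 51.9%. These are matches in the reference sequence, and binding of ZEB1 was not measured here.

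Among the 9 genes, the 3′ UTR, taken from the longest coding isoform (GENCODE M21, GRCm38), matched a miR-200 seed only in Rab11fip2. The mature microRNAs, from RefSeq, are shown with the seed (bases 2 to 8) in capitals because they fall into 2 groups that differ at 1 seed base.
mmu-miR-200b-3p: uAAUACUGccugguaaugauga
mmu-miR-200c-3p: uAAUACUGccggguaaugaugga
mmu-miR-429-3p: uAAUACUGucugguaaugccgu
mmu-miR-200a-3p: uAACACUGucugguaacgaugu
mmu-miR-141-3p: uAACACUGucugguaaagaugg

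The 4032-base Rab11fip2 3′ UTR held 2 matches to each seed, shown with flanking bases, 5′ to 3′ on the minus strand of chromosome 19, and with the pairing bases in capitals (an 8mer adds an A opposite base 1 of the microRNA).
8mer to the miR-200b seed (chr19:59905002-59905009): tccatgtattCAGTATTAtgacagctgc
7mer to the miR-200b seed (chr19:59904190-59904196): ttaacgacaaCAGTATTttacaggcag
7mer to the miR-200a seed (chr19:59906055-59906061): tttcttcagcCAGTGTTctcctggtgt
7mer to the miR-200a seed (chr19:59904145-59904151): ctcagcttgaCAGTGTTgccacaccgc

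A match to either seed was present in 1 of the 9 genes and in 30.4% of the 12005 tested genes with an annotated 3′ UTR. The other 8 genes had 3′ UTRs of 214 to 5184 bases without a match. Reads on the Mir200b hairpin feature numbered 29, 26 and 54 in the 393P_vector samples and 0 in each 393P_ZEB1 sample, where 3 counts correspond to 0.049 to 0.0551 CPM, and reads on Mir200c numbered 78, 70 and 125 compared with 1, 0 and 0. Mir200a had 8, 5 and 15 reads and Mir429 had 9, 8 and 13 in 393P_vector, and both had 0 in each 393P_ZEB1 sample. Mir141 had 0 in each 393P_vector sample and 1, 0 and 0 in 393P_ZEB1, too few for a comparison. These are reads on hairpin features, and mature microRNAs were not measured here. The values of Rab11fip2, the gene with the matches, are given with the other FIPs, and a link to these microRNAs was not tested.

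Of the 9 genes, 4 passed the threshold of adjusted p below 0.05 and were lower in 393P_ZEB1 (Rab25, Rab11fip1, Rab11fip2 and Rab11fip4), and none was higher. In the same fit, 37.6% of all tested genes passed, 19.3% lower and 18.3% higher. Sample ranges of the groups did not overlap for 6 of the 9 genes, and for 52.8% of all genes. Without the third 393P_vector sample, 7 of the 9 genes passed as lower and 1, Rab11a, as higher, all but Rab17, compared with 53.0% of all genes, 26.8% lower and 26.2% higher. Without 393P_ZEB1 replicate 2 or 3, 2 of the 9 passed as lower. Over all genes, 1801 and 1784 passed as lower in these settings, compared with 2679 with all samples. Because this comparison was in view when the genes were chosen, nothing is read from these counts. The median log2 fold change of the 9 genes was -0.45 and that of all tested genes -0.024.

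**Figure D1:**
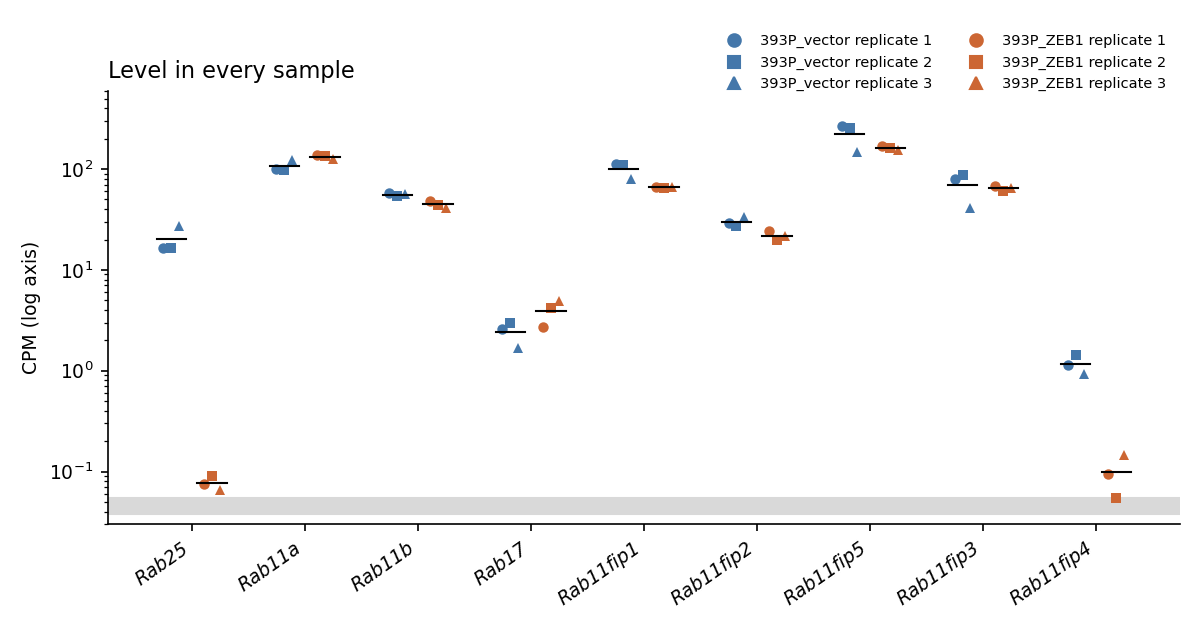
CPM (log axis) of the 9 genes in every sample, with blue points for 393P_vector, orange points for 393P_ZEB1, a different symbol for each replicate, and black bars for group means. The grey band spans the level of 3 counts in the 6 libraries, computed from total counts without the TMM factors that the points use. The 393P_ZEB1 samples of Rab25 lie at 0.0655 to 0.0900 CPM, just above the band, and those of Rab11fip4 at 0.0540 to 0.147 CPM.

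Rab25, the epithelial member of the RAB11 subfamily, showed the largest difference of the 9 genes. Its counts were 937, 976 and 2278 in 393P_vector and 4, 5 and 4 in 393P_ZEB1, or 16.6, 16.6 and 27.4 CPM compared with 0.0748, 0.0900 and 0.0655 CPM. The groups were far apart, and within 393P_vector the third sample was 1.65 times the mean of the other 2. Its log2 fold change was -8.01 ± 0.35 (SE, n = 3 per group), a 257-fold lower level, which ranked 13 from the lowest among the 13892 tested genes. It was -7.72 ± 0.20 without the third 393P_vector sample. A count of 4 has an exact Poisson 95% interval of 1.09 to 10.2 counts, and 5 counts one of 1.62 to 11.7, so the residual level is known only to that precision. More than 10 reads fell on all 5 exons in each 393P_vector sample. The gene lies on the minus strand at chr3:88542029-88548279, and the 678 tested genes of its chromosome had a median log2 fold change of 0.065.

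The surroundings of Rab25 did not share its values. Of the 5 tested genes on each side, chosen after the values were seen, 2 were higher past the threshold, 1 was lower (Sema4a, -1.66 ± 0.31), and the median log2 fold change of the 10 was -0.0006. The adjacent Mex3a, which encodes an RNA-binding protein, rose by 0.43 ± 0.09 (adjusted p = 0.00696). Lamtor2 on the other side, a subunit of the lysosomal Ragulator complex, measured 11.7 ± 8.35 CPM (SD, n = 3) in 393P_vector and 7.11 ± 1.13 CPM in 393P_ZEB1, with a log2 fold change of -0.72 ± 0.44 that turned to 0.044 without the third 393P_vector sample.

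Rab11a, the ubiquitous GTPase of the recycling endosome, measured 101, 96.8 and 123 CPM in 393P_vector and 139, 134 and 125 CPM in 393P_ZEB1. The lowest 393P_ZEB1 sample was only slightly above the third 393P_vector sample, and the ranges did not overlap. The log2 fold change was 0.31 ± 0.12 with all samples, which did not pass the threshold, and 0.43 ± 0.08 without the third 393P_vector sample, which did. The 772 tested genes of chromosome 9, where Rab11a lies at chr9:64715300-64737756, had a median of -0.14.

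Rab11b, its close relative, measured 57.9, 53.4 and 56.1 CPM in 393P_vector and 48.7, 44.0 and 41.1 CPM in 393P_ZEB1. All 393P_ZEB1 samples were below all 393P_vector samples. The log2 fold change of -0.32 ± 0.11 was just short of the threshold (-0.32 ± 0.10, and past it, without the third 393P_vector sample). It was no lower than the median of the 675 tested genes of chromosome 17, -0.43, where Rab11b lies at chr17:33742484-33760486. Exon sequence at its 5′ end overlaps the RNA Gm17251 on the opposite strand, and the sources used here do not state whether counting used strand.

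To compare levels between genes, CPM was divided by the exon length in kb. The summed level of the 3 RAB11 subfamily genes was 74.2 ± 12.1 CPM per kb in 393P_vector and 64.5 ± 3.53 CPM per kb in 393P_ZEB1 (SD, n = 3), and their ranges of 66.1 to 88.1 and 60.8 to 67.8 overlapped. The composition of this sum differed between the groups. Rab25 made up 25.4 ± 3.58% of it in 393P_vector and 0.113 ± 0.0162% in 393P_ZEB1, and Rab11a made up 62.0 ± 1.75% and 88.5 ± 0.388%. Shares of the same sum depend on each other, so a lower share of Rab25 by itself raises the shares of Rab11a and Rab11b. The share of Rab11b was 12.6 ± 1.84% and 11.4 ± 0.394%, and the groups overlapped only through the third 393P_vector sample (10.5%), since the other 2 had 13.3% and 13.9% and the 393P_ZEB1 samples at most 11.8%. By length-scaled level, Rab25 took a larger share than Rab11b in each 393P_vector sample. In counts not scaled by length this order was the reverse, with 10.9% for Rab25 and 30.7% for Rab11b in 393P_vector, as Rab25 has the shortest transcript of the 3.

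**Figure D2:**
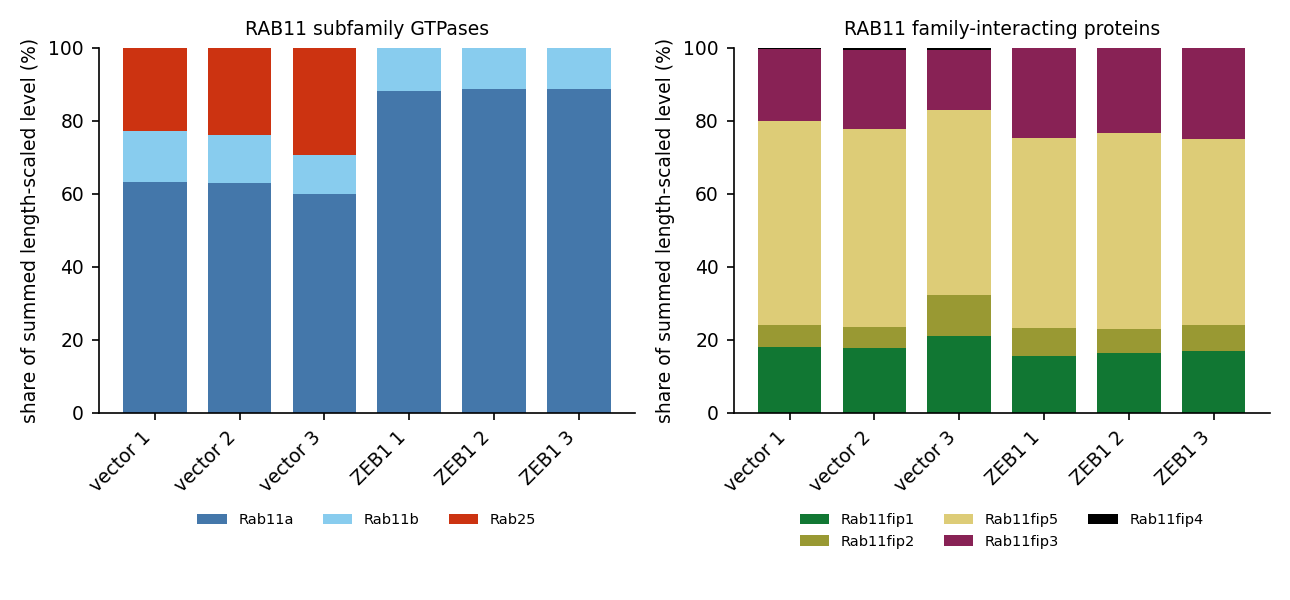
Share of each gene in the summed length-scaled level (CPM per kb, in percent) of the 3 RAB11 subfamily genes, left, and of the 5 FIP genes, right, in each 393P_vector and 393P_ZEB1 sample. Rab25 takes 22.9% to 29.5% of the left bars in 393P_vector and at most 0.131% in 393P_ZEB1, while Rab11fip5 takes more than 50% of every right bar.

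Rab17, which acts at the apical recycling endosome and in transcytosis, was the member with the largest increase in log2 fold change, but at a low level and with a wide spread. It measured 2.60, 2.94 and 1.66 CPM in 393P_vector and 2.73, 4.16 and 4.95 CPM in 393P_ZEB1, from 138 to 302 counts per sample. The first 393P_ZEB1 sample lay within the 393P_vector range. The log2 fold change of 0.72 ± 0.29, and of 0.51 ± 0.24 without the third 393P_vector sample, did not pass the threshold. More than 10 reads fell on 3 or 4 of its 7 exons in 393P_vector and on 3, 5 and 6 in 393P_ZEB1. Rab17 lies at chr1:90958133-90969620, on a chromosome with a median log2 fold change of 0.064. Rab25 and Rab17, both GTPases of the apical recycling endosome, had log2 fold changes of opposite sign, of which that of Rab17 did not pass the threshold.

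The class I FIPs, Rab11fip1, Rab11fip2 and Rab11fip5, have a phospholipid-binding domain and sort cargo at the recycling endosome. Rab11fip1, also known as Rab coupling protein and linked to integrin recycling, measured 113, 109 and 80.1 CPM in 393P_vector and 66.1, 65.0 and 67.0 CPM in 393P_ZEB1. The 393P_ZEB1 samples lay close together and below all 393P_vector samples, of which the third was the lowest. This gave a log2 fold change of -0.61 ± 0.14, and -0.75 ± 0.07 without the third 393P_vector sample. The call was lost without any one of the 393P_ZEB1 samples (-0.60, -0.59 and -0.61). The gene, at chr8:27138773-27174646, shares exon sequence with 4933416M07Rik on the opposite strand.

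Rab11fip2, which links RAB11 to myosin Vb, measured 29.1, 27.0 and 33.6 CPM in 393P_vector and 24.2, 19.9 and 21.5 CPM in 393P_ZEB1. The groups did not overlap, although the nearest samples were only a few CPM apart. Its log2 fold change was -0.45 ± 0.13, and -0.36 ± 0.11 without the third 393P_vector sample. The call was lost without 393P_vector replicate 1 (-0.47), without 393P_ZEB1 replicate 2 (-0.38) and without 393P_ZEB1 replicate 3 (-0.43). The gene with the miR-200 seed matches shown above, at chr19:59902884-59943654, gave the median log2 fold change of the 9 genes.

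Rab11fip5, known for apical sorting and for binding kinesin II, was the most abundant FIP. It measured 270, 255 and 149 CPM in 393P_vector and 170, 163 and 156 CPM in 393P_ZEB1. The third 393P_vector sample fell below all 393P_ZEB1 samples, whereas the other 2 lay well above them. The log2 fold change was -0.46 ± 0.21 with all samples, not past the threshold, and -0.69 ± 0.07, past it, without the third 393P_vector sample. The 670 tested genes of chromosome 6, where Rab11fip5 lies at chr6:85334962-85374634, had a median of -0.36.

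The class II FIPs, Rab11fip3 and Rab11fip4, carry EF-hand motifs, bind ARF GTPases as well as RAB11, and act in cytokinesis. Rab11fip3 measured 79.5, 86.5 and 41.4 CPM in 393P_vector and 68.0, 60.2 and 64.2 CPM in 393P_ZEB1. As for Rab11fip5, the third 393P_vector sample was below all 393P_ZEB1 samples and the other 2 were above them. With all samples the log2 fold change was -0.11 ± 0.25, and -0.37 ± 0.09, past the threshold, without that sample. It turned to 0.010 without 393P_vector replicate 1 and to 0.092 without replicate 2, and the median of chromosome 17 was -0.43. Its position is chr17:25989036-26069177, where its exons overlap those of 1700022N22Rik on the opposite strand.

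Rab11fip4 was the FIP with the lowest level and the largest difference. Its counts were 65, 84 and 77 in 393P_vector and 5, 3 and 9 in 393P_ZEB1, or 1.15, 1.43 and 0.927 CPM compared with 0.0935, 0.0540 and 0.147 CPM. More than 10 reads fell on only 1, 2 and 1 of its 15 exons in 393P_vector and on none in 393P_ZEB1. The ranges were well separated, and the second 393P_ZEB1 sample was at the smallest detectable level, with an exact Poisson 95% interval of 0.619 to 8.77 counts. On the log2 scale the difference was -3.52 ± 0.38, an 11.5-fold lower level, and -3.66 ± 0.38 without the third 393P_vector sample. The gene lies at chr11:79591212-79694012 and contains the antisense genes Rab11fip4os1 and Rab11fip4os2 in its introns. The 1156 tested genes of chromosome 11 had a median log2 fold change of 0.27. Of the 5 tested genes on each side of Rab11fip4, 4 rose, none fell and 6 did not pass. The log2 fold changes of the 10 ran from 0.17 to 1.72, the highest for Evi2a, which lies within an intron of the neighboring Nf1. Around each member other than Rab25 and Rab11fip4, no neighbor rose past the threshold, and 2 to 5 of 10 fell. Their neighbor medians were -0.14 (Rab11a), -0.41 (Rab11b), -0.17 (Rab17), -0.30 (Rab11fip1), -0.38 (Rab11fip2), -0.34 (Rab11fip5) and -0.38 (Rab11fip3). Of the 10 counted for Rab11fip5, 1 is a microRNA gene inside Rab11fip5, on the same strand and with overlapping exons. Its value, -0.33, is among those that set the median and is not separate from Rab11fip5.

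**Figure D3:**
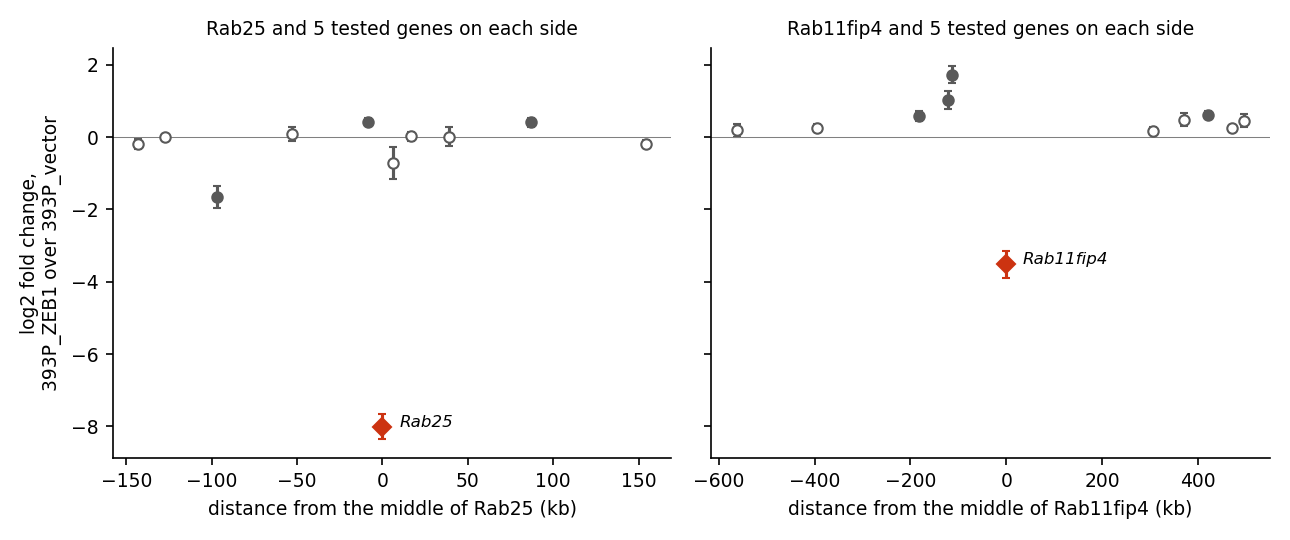
Log2 fold change with SE of Rab25, left, and Rab11fip4, right (red diamonds), and of the 5 nearest tested genes on each side (circles, filled where adjusted p was below 0.05), by distance in kb between gene midpoints. The neighbors of Rab25 lie between -1.66 and 0.43 and those of Rab11fip4 between 0.17 and 1.72, all above the gene in the middle.

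The FIPs together had a summed level of 68.0 ± 17.2 CPM per kb in 393P_vector and 51.0 ± 1.94 CPM per kb in 393P_ZEB1. The third 393P_vector sample, at 48.2, lay below the 393P_ZEB1 range of 49.8 to 53.2, whereas the other 2, at 77.0 and 78.8, lay above it, and their mean was 1.53 times that of 393P_ZEB1. The share of Rab11fip5, 53.5 ± 2.80% and 52.3 ± 1.24%, and that of Rab11fip2, 7.77 ± 3.20% and 7.05 ± 0.458%, overlapped between the groups only through the third 393P_vector sample. Without it, Rab11fip5 made up 55.0% and Rab11fip2 5.92% in 393P_vector, so that the direction for Rab11fip2 turned. Rab11fip1 made up 18.9 ± 1.72% in 393P_vector and 16.3 ± 0.631% in 393P_ZEB1, and Rab11fip3 19.3 ± 2.58% and 24.3 ± 0.804%, both without overlap. The share of Rab11fip4 was 0.557 ± 0.0802% and 0.0617 ± 0.0302%, also without overlap. These shares too depend on each other, and the level of Rab11fip3 itself differed by -0.11 ± 0.25 on the log2 scale (SE).

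In 393P_vector the order of length-scaled levels was Rab11a at 45.9, Rab11fip5 at 36.7, Rab25 at 19.1, Rab11fip3 at 13.4, Rab11fip1 at 12.7, Rab11b at 9.21, Rab11fip2 at 4.92, Rab17 at 1.24 and Rab11fip4 at 0.373 CPM per kb. Neighbors in this order overlapped in range as far as Rab11fip1, and from Rab11fip1 down none did. In 393P_ZEB1 the order was Rab11a at 57.1, Rab11fip5 at 26.6, Rab11fip3 at 12.4, Rab11fip1 at 8.30, Rab11b at 7.36, Rab11fip2 at 3.6, Rab17 at 2.03, Rab25 at 0.0728 and Rab11fip4 at 0.0314 CPM per kb, with no overlap between neighbors. By these means only Rab25 changed its place relative to the other genes, from the third to the eighth. The last 2 places in 393P_ZEB1 rest on 4, 5 and 4 counts of Rab25 and 5, 3 and 9 of Rab11fip4. Their Poisson intervals overlapped, so the order of these 2 genes is not settled. Without the third 393P_vector sample, the 393P_vector order opened with Rab11fip5 at 42.9, Rab11a at 42.4, Rab11fip3 at 16.0 and Rab25 at 15.7 CPM per kb, so that Rab11a and Rab11fip5 also changed places between the groups.

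**Figure D4:**
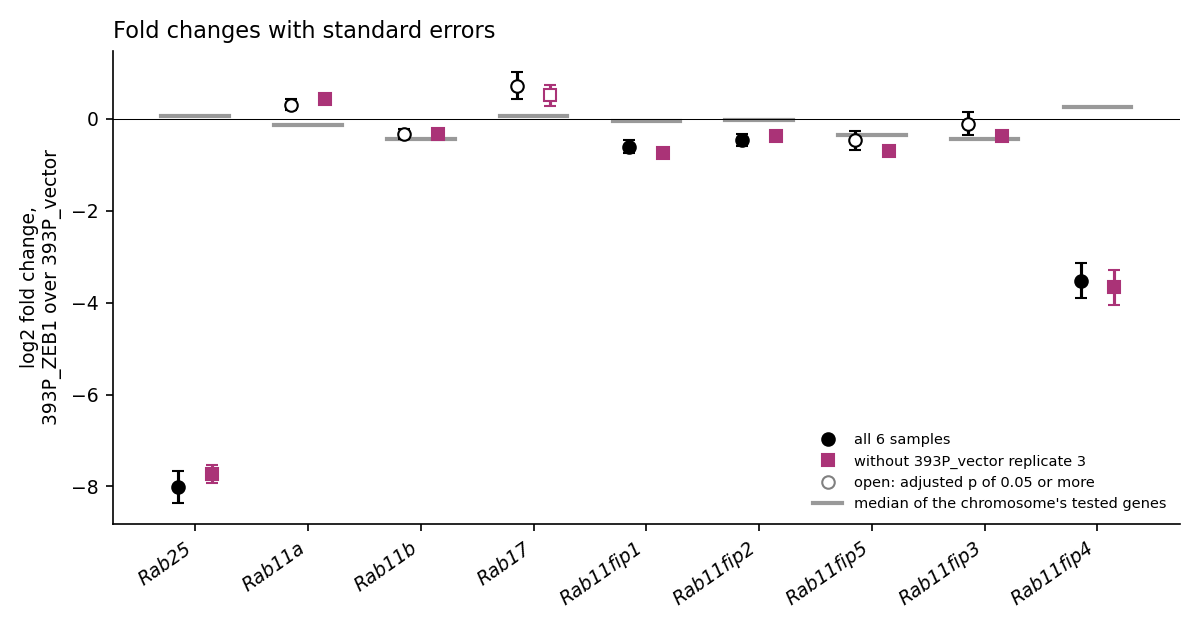
Log2 fold change of 393P_ZEB1 over 393P_vector with SE for each of the 9 genes, with all 6 samples (circles) and without 393P_vector replicate 3 (squares), filled where adjusted p was below 0.05. Grey lines mark the median of the tested genes on each chromosome, from -0.43 to 0.27; only Rab25 and Rab11fip4 lie more than 3 log2 units from it.

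To place these 9 genes in their pathway, 4 lists of other genes were counted in the same fit, against the 18.3% of all genes that rose and the 19.3% that fell. Of the effectors and motors that act with RAB11, 15 of 16 were tested, 5 rose and 3 fell, with a median log2 fold change of 0.18. Rab3il1, an exchange factor for RAB8 that RAB11 recruits, rose from 0.455 ± 0.0419 to 1.30 ± 0.280 CPM (SD, n = 3), a log2 fold change of 1.51 ± 0.25 (SE, adjusted p = 0.00229). The kinesins Kif13a, a RAB11 effector that moves recycling tubules, and Kif3a, a subunit of kinesin II, rose by 0.84 ± 0.15 (adjusted p = 0.00368) and 0.71 ± 0.10 (adjusted p = 0.00132). Myo5b, the actin motor of RAB11 vesicles in epithelia, fell from 52.6 ± 10.5 to 32.7 ± 0.889 CPM, a change of -0.68 ± 0.16 (adjusted p = 0.0121). The count of fallen effectors was 1 without 393P_ZEB1 replicate 1 or 2, where Myo5b lost its call (adjusted p = 0.0564 and 0.0514).

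Of the 17 regulators of RAB11 and RAB17, 2 rose, 2 fell and 13 did not pass, with a median of 0.020. Rabggta, the alpha subunit of the enzyme that attaches geranylgeranyl lipids to Rab proteins, fell from 40.1 ± 2.46 to 19.6 ± 4.41 CPM (-1.03 ± 0.18, adjusted p = 0.0030). Trappc10, a subunit of the TRAPP II exchange factor complex for RAB11, fell by 0.65 ± 0.10 (adjusted p = 0.00174). Gdi2, which extracts inactive Rab proteins from membranes, rose from 287.9 ± 15 to 473 ± 35.2 CPM (0.72 ± 0.11, adjusted p = 0.00137). Rabgap1, a GTPase-activating protein, rose by 0.40 ± 0.11 (adjusted p = 0.0253). Without the third 393P_vector sample, 4 regulators rose and 6 fell, in a fit where 26.2% of all genes rose and 26.8% fell. Only 1 rose without 393P_vector replicate 2 or any one 393P_ZEB1 replicate, where Rabgap1 lost its call (adjusted p = 0.0507 to 0.0887).

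Of the other recycling machinery, 25 of 26 genes were tested, 5 rose and 3 fell, with a median of -0.022. Rab15, an endosomal GTPase with a role in receptor recycling, fell from 1.52 ± 0.503 to 0.252 ± 0.0470 CPM (-2.57 ± 0.34, adjusted p = 0.000827). Micall1, a membrane tubule scaffold that binds EHD1, fell from 66.3 ± 17.4 to 29.0 ± 10.6 CPM (-1.19 ± 0.29, adjusted p = 0.0149), and lost its call without 393P_ZEB1 replicate 1 or 2 (adjusted p = 0.0743 and 0.0601). Rab8b, a GTPase of the secretory and recycling routes, and Snx4, a sorting nexin of transferrin receptor recycling, rose by 0.64 ± 0.14 (adjusted p = 0.0108) and 0.58 ± 0.10 (adjusted p = 0.00289). Without the third 393P_vector sample 8 genes rose and 9 fell, in a fit where 26.2% of all genes rose and 26.8% fell. In this list 3 rose without 393P_vector replicate 1 or 393P_ZEB1 replicate 3, and 1 fell without 393P_ZEB1 replicate 2. Over all genes, 2023 and 1861 rose in the first 2 of these settings, compared with 2539 with all samples. In the last, 1801 fell, compared with 2679.

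Of 10 receptors and adhesion proteins that recycle or undergo transcytosis, 9 were tested, 6 fell and 1 rose, with a median of -0.59. Cdh1, which encodes E-cadherin and is also 1 of the 12 epithelial markers, fell from 162 ± 61.2 to 9.51 ± 0.718 CPM (-4.09 ± 0.28, adjusted p = 2.28e-05). Fcgrt, the transcytosed neonatal Fc receptor, fell by 2.75 ± 0.42 (adjusted p = 0.00158), from 0.369 ± 0.0660 CPM to 0.0518 ± 0.0261 CPM, which is at the smallest detectable level. The chloride channel gene Cftr and the receptor kinase gene Met fell by 0.82 ± 0.18 (adjusted p = 0.00932) and 0.67 ± 0.12 (adjusted p = 0.00331). The single gene that rose was Egfr, at 0.61 ± 0.09 (adjusted p = 0.00136). The count of fallen cargo genes was 4 without 393P_vector replicate 1 or any single 393P_ZEB1 replicate. Tfrc, the transferrin receptor and the classical cargo of the recycling endosome, measured 228.9 ± 35.5 CPM in 393P_vector and 209.5 ± 25.8 CPM in 393P_ZEB1 with overlapping ranges (-0.13 ± 0.15, adjusted p = 0.527, not past the threshold).

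**Figure D5:**
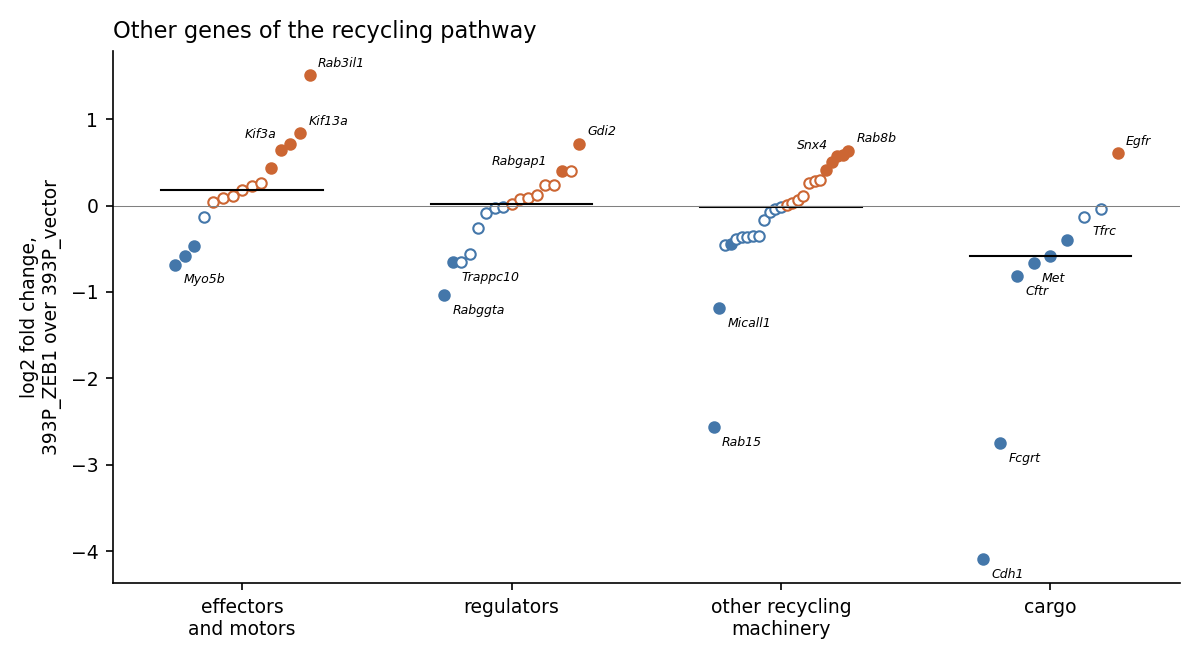
Log2 fold change of 393P_ZEB1 over 393P_vector for the tested genes of the 4 pathway lists, each sorted from lowest to highest, filled where adjusted p was below 0.05, orange above 0 and blue below it; black bars are list medians (0.18, 0.020, -0.022 and -0.59). Rab15, Fcgrt and Cdh1 lie below -2, and the other tested genes lie between -1.19 and 1.51.

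Markers of other cell types were at low levels in these cultures. The summed CPM of 7 leukocyte markers was 2.74 to 4.98 in 393P_vector and 1.80 to 2.18 in 393P_ZEB1, and 1 of the 4 tested fell (Csf1r, -1.82 ± 0.27). The sum of 7 fibroblast markers was 2.40 to 3.27 and 2.77 to 3.61 CPM, and of the 5 tested, 2 rose and 1 fell (Col3a1, 3.75 ± 0.33, and Pdgfra, -2.01 ± 0.24, had the largest changes). The sum of 5 endothelial markers was 2.82 to 3.13 and 0.846 to 1.40 CPM, and 1 of the 3 tested fell (Kdr, -2.51 ± 0.28). No marker was at 0 in all samples. Their part in the values of the 9 genes was not tested.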

How the data were processed

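Total RNA of 6 samples, 3 each of 393P_vector and 393P_ZEB1, was sequenced on the SOLiD platform, and samples were grouped by the vector named in their labels. Per the file headers, the authors deposited for each of 24214 RefSeq features the unnormalized read count, the RPKM and the number of exons with over 10 reads. The RPKM values imply a total of 99.1% to 99.32% of the summed counts and were not used further. The coordinates are those of GRCm38: of 20841 symbols also in RefSeq GRCm38, 69.2% had the same start or end. The aligner, the counting program and the use of strand in counting are not given in the sources used here.

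Counts were tested in R 4.3.3 with edgeR 4.0.16 (filterByExpr with a minimum count of 10, TMM, robust quasi-likelihood fit without a block, Benjamini-Hochberg adjustment over 13892 genes, threshold 0.05). The SE given for a log2 fold change is its absolute value divided by the square root of the quasi-likelihood F statistic. It is not a separately estimated standard error. The fit was tested on simulated data with 200 changed genes. CPM used TMM-normalized library sizes, except for the level of 3 counts, which used total counts. Poisson intervals (95%, exact) cover counting error only. Summaries were made with pandas 2.3.3, SciPy 1.17.1 and NumPy 2.4.6 under Python 3.11.15, and figures with matplotlib 3.10.9. Vps50 and Adgre1 were found under the older symbols Ccdc132 and Emr1.

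The members and the gene lists were chosen with earlier results of these data known. Named in the text were the 9 genes, Zeb1, the 4 genes past the threshold with the largest change in each pathway list, Kif13a, Tfrc, 2 such genes of each marker list, and the 5 genes of at least 5 CPM whose profile was nearest to the member with the largest increase and to that with the largest decrease. Egfr and the neighboring genes were named after their values were seen. Alternatives were DESeq2 1.42.0 (its Wald test, and its size factors in the edgeR fit), all genes without a low-count filter, the replicate number as a block, each sample left out in turn, and for sequences CACCT and all annotated 3′ UTRs.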

Additional observations from a re-analysis of the deposited data

How the results depend on the processing

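Rab25 and Rab11fip4 kept their direction and call under all 10 alternatives, with log2 fold changes of -8.13 to -7.72 and -3.94 to -3.23 when a sample was left out. Their SE in the Wald test of DESeq2, 0.48 and 0.50, was larger than in the main fit, 0.35 and 0.38. The members past the threshold numbered 0 to 1 higher and 2 to 7 lower when a sample was left out. Both highest counts were those without 393P_vector replicate 3, where 26.2% of all genes were higher and 26.8% lower. The lowest count was that without 393P_ZEB1 replicate 2 or 3, where 1801 and 1784 of all genes were lower, compared with 2679 in the main fit. The Wald test of DESeq2 called 1 member higher (Rab17, 0.73). That test also called Rab11b (-0.32). Over all genes it called 2823 higher and 2957 lower, compared with 2539 and 2679 in the main fit. Rab11fip3 (-0.37 to 0.092 with a sample left out) turned to 0.010 without 393P_vector replicate 1 and 0.092 without replicate 2, and Lamtor2 (-1.02 to 0.044) turned to 0.044 without replicate 3. Over all genes, 1861 to 3700 rose and 1784 (without 393P_ZEB1 replicate 3) to 3776 fell with a sample left out. In the lists the same ranges were 1 to 3 effectors that fell, and 1 to 4 regulators that rose and 2 to 6 that fell. Of the other machinery 3 to 8 genes rose and 1 to 9 fell, and 4 to 6 cargo genes fell. The DESeq2 test gave 5 fallen regulators and 5 fallen genes of the other machinery, and 4 regulators fell without the filter on low counts. Shares from counts not scaled by length were 10.9% (Rab25) and 58.4% (Rab11a) in 393P_vector and 74.9% (Rab11a) in 393P_ZEB1. The motif CACCT was found in 5 genes. The cause of these differences was not tested, beyond fewer samples or another motif by construction. Of 40 named genes outside the members, 32 kept direction and call under every alternative, and Lamtor2 alone turned. The shares and order of levels without 393P_vector replicate 3 were chosen after seeing the data.

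The r of deviations from group means was 0.28, -0.21 and -0.04 for equal replicate numbers and -0.18 to 0.22 for unequal ones. From 3 samples per group it cannot be told whether samples of equal number were handled together. With the replicate block, Rab11fip2 lost its call (-0.45), 3 members were lower, and 2180 genes rose and 2256 fell. At 3 to 9 counts, the levels of Rab25 and Rab11fip4 in 393P_ZEB1 are limited by depth.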

Other observations

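The genes whose profile over the 6 samples was nearest to that of Rab25, by the root mean square difference of centered log2 CPM among 10097 genes of at least 5 CPM, were Uty (0.197), Il24 (0.254), Mal (0.282), Ddx3y (0.303) and Esrp1 (0.313). Mal, a proteolipid of apical transport in epithelia, measured 59.1 ± 1.72 CPM in 393P_vector and 0.321 ± 0.110 CPM in 393P_ZEB1 (SD, n = 3), and Il24, a cytokine, 22.7 ± 6.12 and 0.0994 ± 0.0440 CPM. Uty and Ddx3y lie on the Y chromosome and measured 20.9 ± 4.62 and 39.1 ± 8.47 CPM in 393P_vector and 0.10 ± 0.0112 and 0.250 ± 0.0758 CPM in 393P_ZEB1. The transfectants thus differed in transcripts of the Y chromosome as well, and how this bears on Rab25 was not tested.

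The genes nearest to the profile of Rab17 were Pik3cd (0.139), Aldh16a1 (0.145), Arl10 (0.157), 2310003H01Rik (0.157) and Pih1d1 (0.176). Pik3cd, a catalytic subunit of phosphoinositide kinase, measured 4.18 ± 0.947 CPM in 393P_vector and 6.61 ± 1.31 CPM in 393P_ZEB1, and Arl10, a small GTPase of the ARF-like family, 11.6 ± 4.12 and 20.9 ± 4.08 CPM.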
